A study of Mus musculus with 6 samples.

Results

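The genes described here are 10 members of the platelet-derived growth factor (PDGF) and fibroblast growth factor (FGF) systems, chosen by symbol: the PDGF ligands Pdgfa, Pdgfb and Pdgfc, the FGF ligands Fgf1, Fgf2 and Fgf7, the PDGF receptors Pdgfra and Pdgfrb, and the FGF receptors Fgfr1 and Fgfr2. All 10 have a row among the 27482 gene symbols of the count table. RNA-seq was done on 6 libraries from material labelled as heart of male mice. A group of 3 was labelled AAV9-hFNDC4, given an adeno-associated virus serotype 9 vector for overexpression of FNDC4, a secreted factor. The other 3 were labelled AAV9-CTRL, given a control vector of the same serotype. Every mouse had ischemia/reperfusion (I/R) surgery, in which blood flow to the heart is stopped and restored, and tissue was collected 24 h afterwards, so the comparison holds no unoperated animals. The sources used here do not give strain, age, vector promoter or the number of animals per library, and the p-values therefore measure the spread between libraries, which may be technical.

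PDGFs and most FGFs are extracellular proteins that bind receptor tyrosine kinases. PDGF ligands act as dimers. PDGF-AA and PDGF-CC bind the alpha receptor, encoded by Pdgfra, and PDGF-BB binds both receptors, while most FGF ligands need heparan sulfate chains at the cell surface to bind theirs. Both receptor families signal through RAS and ERK, phosphoinositide 3-kinase and phospholipase C gamma, and in the heart the PDGF receptors are known from fibroblasts (Pdgfra) and from pericytes and smooth muscle cells (Pdgfrb).

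Total counts were 34419687 to 35149915 in the AAV9-hFNDC4 libraries and 32975817 to 36074046 in the AAV9-CTRL libraries, and log2 CPM (counts scaled to library size) correlated more closely between libraries of a group (0.981 to 0.989) than across groups (0.937 to 0.951). Markers of heart muscle were mostly near 0. Only 4 markers of the cardiomyocyte list of 20 were at 1 CPM or more in 3 libraries or more, Myl7, Pln and Nkx2-5 had no counts, and Myh6, the main myosin of the adult mouse heart, had 27 counts over the AAV9-hFNDC4 libraries and 30 over the AAV9-CTRL libraries. The summed level of the cardiomyocyte list was 49.6 to 51.9 CPM in AAV9-hFNDC4 and 63.2 to 64.7 CPM in AAV9-CTRL. Most of it was Tnnt2, at 38.1 ± 0.669 CPM in AAV9-hFNDC4 and 51.7 ± 1.71 CPM in AAV9-CTRL. In the test described below, 2 of 7 tested were lower (Tnnt2, and Ryr2 at under 1 CPM in every library) and 0 higher. Among all tested genes, 25.0% were lower and 22.1% higher. The levels of this list go against the tissue label, and no value below is assigned to a cell type.

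Both PDGF receptors were higher in the AAV9-hFNDC4 libraries, Pdgfra 2.31-fold and Pdgfrb 2.07-fold, as were the FGF ligands Fgf1 (2.33-fold) and Fgf7 (1.70-fold). The ligand Pdgfa was lower, its level in AAV9-CTRL being 1.60 times that in AAV9-hFNDC4. Fgfr1, the main FGF receptor of these libraries, did not pass the test. Of the 10 members, 8 passed the filter on low counts. Of these 8, 4 were higher (Pdgfra, Pdgfrb, Fgf1, Fgf7), 1 was lower (Pdgfa) and 3 did not pass the test (Pdgfc, Fgf2, Fgfr1), at a Benjamini-Hochberg adjusted p under 0.05 in edgeR's quasi-likelihood test over 14663 genes. These shares stand against 22.1% of all tested genes called higher and 25.0% called lower, together 47.1%, so a call by itself was common in this comparison. The groups did not overlap in the 5 called members, 4 above and 1 below, and in 56.6% of all tested genes, 27.1% above and 29.5% below. Pdgfra, Pdgfrb and Fgf1 were called with a rise of more than 2-fold, a size that 6.77% of all tested genes reached. With the length correction described below, Pdgfra (0.77 in log2 units) and Pdgfrb (0.82) were under 2-fold. The median log2 fold change was 0.64 over the 8 tested members and 0.01 over all tested genes.

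**Figure D1:**
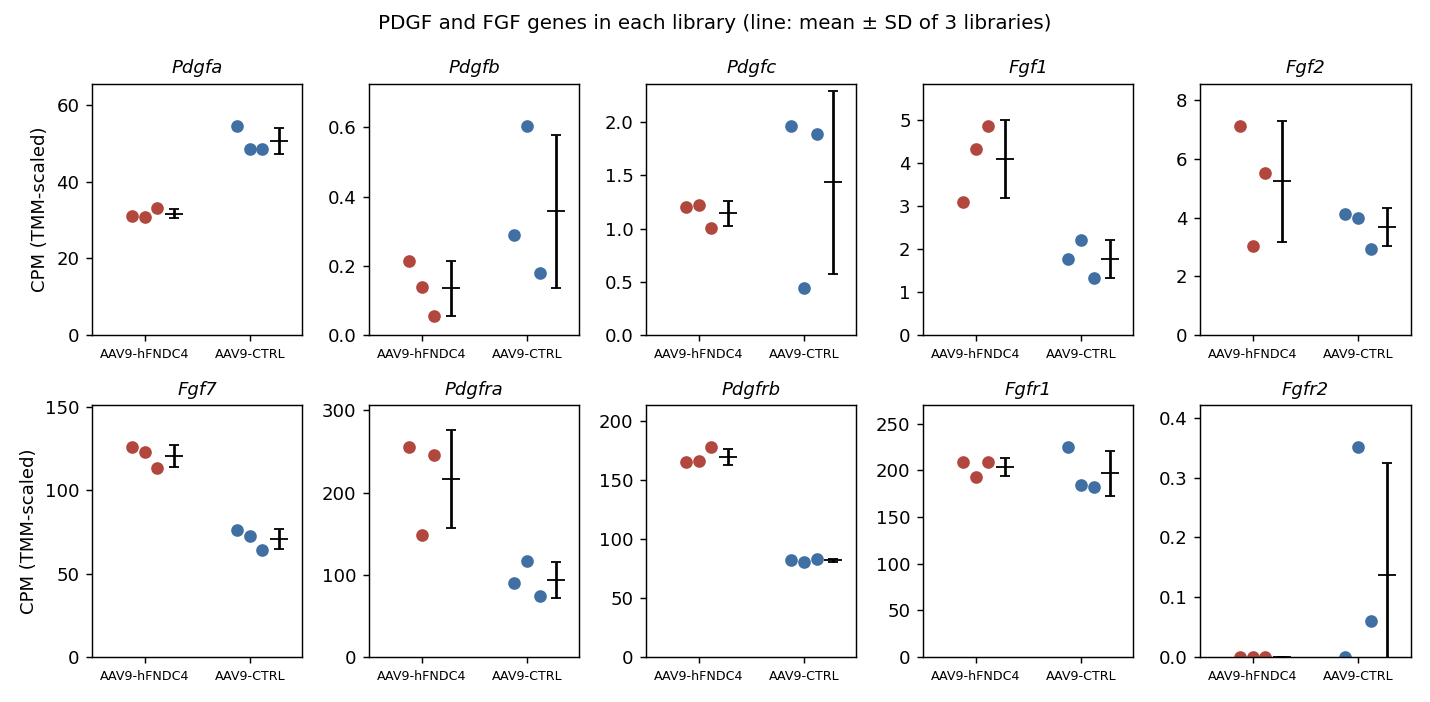
Level of each of the 10 genes in CPM scaled by TMM (vertical axis, from 0), with 1 point per library, AAV9-hFNDC4 in red on the left and AAV9-CTRL in blue on the right of each panel, and the mean ± SD of 3 libraries in black. Pdgfrb, Fgf7, Fgf1 and Pdgfra lie above the AAV9-CTRL libraries in all 3 AAV9-hFNDC4 libraries and Pdgfa lies below, while Fgfr2 and Pdgfb stay under 1 CPM (the SD bar of Fgfr2 is cut at 0).

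Pdgfrb encodes the beta receptor (chromosome 18, 61045127 to 61085067, GRCm38.p6). It had 165, 166 and 177 CPM in the AAV9-hFNDC4 libraries, against 82.1, 80.5 and 82.8 CPM in the AAV9-CTRL libraries. The spread within either group was small beside the gap, with means of 169.5 ± 6.89 CPM in AAV9-hFNDC4 and 81.8 ± 1.19 CPM in AAV9-CTRL (SD, n = 3 libraries each). On the log2 scale Pdgfrb was higher by 1.05 (SE 0.10, adjusted p = 1.88e-05). Pdgfra, the alpha receptor (chromosome 5, 75151322 to 75198206), had 255, 148 and 246 CPM in AAV9-hFNDC4, against 89.4, 117 and 74.6 CPM in AAV9-CTRL. The 3 AAV9-hFNDC4 libraries were again all higher, but replicate 2 of that group lay much closer to the highest AAV9-CTRL library than to the others. Its log2 fold change was 1.21 (SE 0.21, adjusted p = 0.00116). Without AAV9-hFNDC4 replicate 2 it was 1.43.

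Pdgfra has the longest exon model of the members, with 8767 bases. With a correction for the trend of counts with exon length, its log2 fold change was 0.77 and still passed (adjusted p = 0.0434). That of Pdgfrb, with 5478 bases, was 0.82 with the same correction (adjusted p = 7.3e-05). Exons of Pdgfra share 5.54% of their bases with other annotated genes, those of Fgfr2 6.14%, of Pdgfc 4.17% and of Fgfr1 3.14%, so reads of these stretches are uncertain, and those of Pdgfrb share none.

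Fgfr1, the receptor that FGF2 is best known to use (chromosome 8, 25518759 to 25575718), had 209, 193 and 208.5 CPM in AAV9-hFNDC4, against 225, 184 and 182 CPM in AAV9-CTRL. The groups overlapped. Its log2 fold change was 0.05 (SE 0.11, adjusted p = 0.745), and its sign turned to -0.16 with the length correction, so no direction can be given. Fgfr2 (chromosome 7, 130162451 to 130266808), whose IIIb form is the main receptor of FGF7, had no counts in any AAV9-hFNDC4 library, against 0, 11 and 2 counts in the AAV9-CTRL libraries. A floor of 3 counts over the AAV9-hFNDC4 group would make it at least 4.81-fold lower, which covers counting error only and rests on 1 library. Without AAV9-CTRL replicate 2, the 2 counts left lie under that floor and give no fold. Fgfr2 did not pass the low-count filter. At this depth its RNA was at or near the limit of detection in both groups. The AAV9-hFNDC4 libraries also held fewer detected genes, 18717 to 18863, against 20431 to 20870 in the AAV9-CTRL libraries, and of 4012 untested genes with 10 to 50 counts in all, 59.4% had fewer counts in AAV9-hFNDC4. The part of this in the counts of Fgfr2 was not tested.

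Among the ligands, Fgf7, keratinocyte growth factor, which stromal cells make and epithelial cells respond to (chromosome 2, 126034658 to 126091185), had 126, 123 and 113 CPM in AAV9-hFNDC4, against 76.0, 72.6 and 64.4 CPM in AAV9-CTRL. The libraries of the groups were well apart. Means were 121 ± 6.57 CPM in AAV9-hFNDC4 and 71.0 ± 5.99 CPM in AAV9-CTRL (SD, n = 3 libraries each), a log2 fold change of 0.77 (SE 0.11, adjusted p = 0.000185). Over the 15 alternatives it was 0.53 (with a correction for GC content) to 0.85. Fgf1, acidic FGF, which can bind every FGF receptor (chromosome 18, 38838672 to 38929470), had 3.10, 4.32 and 4.86 CPM in AAV9-hFNDC4, against 1.76, 2.20 and 1.32 CPM in AAV9-CTRL. Every AAV9-hFNDC4 library lay above every AAV9-CTRL library. Fgf1 was thus higher by 1.22 in log2 units (SE 0.30, adjusted p = 0.00544).

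Fgf2, basic FGF, a growth factor for fibroblasts and endothelial cells (chromosome 3, 37348477 to 37410106), had 7.13, 3.05 and 5.51 CPM in AAV9-hFNDC4, against 4.11, 3.98 and 2.93 CPM in AAV9-CTRL. AAV9-hFNDC4 replicate 2 lay inside the AAV9-CTRL range and the other two lay above it. The log2 fold change of 0.51 (SE 0.30) did not pass (adjusted p = 0.189). Leaving out AAV9-hFNDC4 replicate 2 gave 0.79 and a call (adjusted p = 0.0268), the 1 alternative of 15 in which Fgf2 passed, with adjusted p from 0.0268 to 0.613 over them. Without AAV9-hFNDC4 replicate 1 it was 0.23, and with the length correction 0.21. Exons of Fgf2 share 13.7% of their bases with other genes, among them Nudt6 on the opposite strand. Nudt6 had 155, 161 and 164 counts in AAV9-hFNDC4, against 44, 59 and 86 counts in AAV9-CTRL, a log2 fold change of 1.19 (SE 0.29, adjusted p = 0.00557). The sources used here do not name the strand setting of the counting, so reads of this pair in the shared bases cannot be told apart.

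Pdgfa, the ligand of the alpha receptor (chromosome 5, 138976014 to 139000792), was the 1 called member that fell. It had 31.2, 30.8 and 33.1 CPM in AAV9-hFNDC4, against 54.6, 48.6 and 48.6 CPM in AAV9-CTRL. The libraries of the groups did not overlap, with means of 31.7 ± 1.24 CPM in AAV9-hFNDC4 and 50.6 ± 3.48 CPM in AAV9-CTRL (SD, n = 3 libraries each). Its log2 fold change was -0.68 (SE 0.11, adjusted p = 0.000437). A RIKEN gene on the opposite strand covers 27.6% of the exon bases of Pdgfa and was not analysed here.

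Pdgfc, another ligand of the alpha receptor that is secreted in latent form (chromosome 3, 81036416 to 81214040), had 1.20, 1.22 and 1.005 CPM in AAV9-hFNDC4, against 1.97, 0.446 and 1.88 CPM in AAV9-CTRL. AAV9-CTRL replicate 2 was the lowest of the 6 libraries and the other two of its group were the highest. Pdgfc had a log2 fold change of -0.33 (SE 0.49, adjusted p = 0.609). Without AAV9-CTRL replicate 2 it was -0.75, without AAV9-CTRL replicate 1 it was -0.01 and without AAV9-CTRL replicate 3 it was -0.09, and none of these passed. Pdgfb (chromosome 15, 79995865 to 80024614), the B chain that platelets and endothelial cells are known to release, had 8, 5 and 2 counts in AAV9-hFNDC4, against 10, 19 and 6 counts in AAV9-CTRL. The groups overlapped and the gene did not pass the low-count filter. The ratio of its counts scaled for depth was 0.386 with an exact binomial 95% interval of 0.196 to 0.725 that covers counting error only. Without AAV9-CTRL replicate 2 it was 0.578, with an interval of 0.266 to 1.25.

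**Figure D2:**
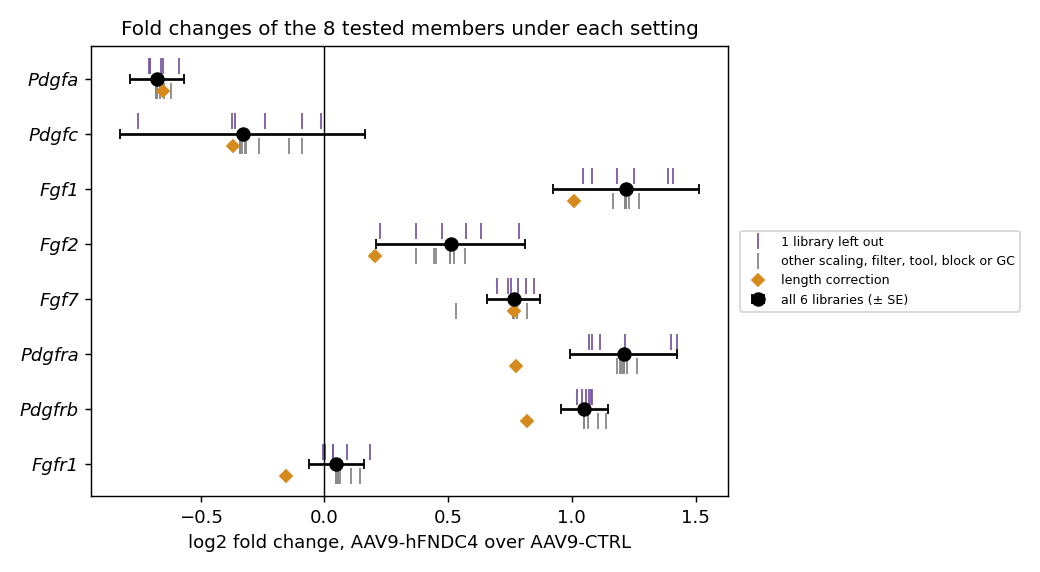
Log2 fold change of AAV9-hFNDC4 over AAV9-CTRL (horizontal axis) for the 8 tested members, with the value from all 6 libraries ± SE in black, values with 1 library left out in purple, the length correction as an orange diamond and the other alternatives in grey. Pdgfa stays below 0 and Fgf1, Fgf7, Pdgfra and Pdgfrb stay above it throughout, while Fgfr1 lies on both sides.

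Levels of different genes were compared per kilobase of exon model (RPKM, from CPM scaled by TMM). In the AAV9-hFNDC4 libraries the order ran from Fgfr1 (39.0 ± 1.82 RPKM) and Fgf7 (38.4 ± 2.09), whose ranges overlapped, through Pdgfrb (30.9 ± 1.26), Pdgfra (24.7 ± 6.79) and Pdgfa (10.8 ± 0.421). Fgf2 (0.802 ± 0.315 RPKM) and Fgf1 (0.790 ± 0.174), which overlapped, were followed by Pdgfc (0.324 ± 0.0338) and Pdgfb (0.0460 ± 0.0271). In the AAV9-CTRL libraries the order was Fgfr1 (37.7 ± 4.65 RPKM), Fgf7 (22.6 ± 1.90), Pdgfa (17.2 ± 1.18), Pdgfrb (14.9 ± 0.218) and Pdgfra (10.7 ± 2.44), without overlap between neighbours. There Fgf2 (0.563 ± 0.0990 RPKM) overlapped Pdgfc (0.407 ± 0.243), Pdgfc overlapped Fgf1 (0.340 ± 0.0852), and Pdgfb (0.122 ± 0.0751) overlapped Fgfr2 (0.0267 ± 0.0367). Pdgfa thus ranked above both PDGF receptors in AAV9-CTRL and below both in AAV9-hFNDC4. The exon model joins all basic GENCODE transcripts of a gene, so a gene expressed mainly as a short form is set too low on this scale.

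**Figure D3:**
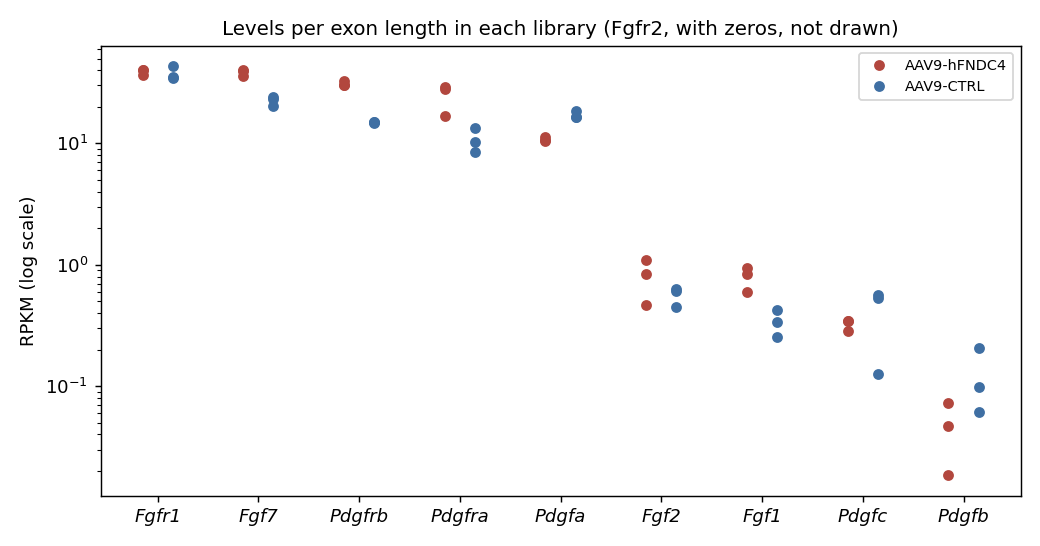
Level per kilobase of exon model in RPKM (vertical log axis) in each library, AAV9-hFNDC4 in red to the left and AAV9-CTRL in blue to the right of each gene's position, with genes ordered by their AAV9-hFNDC4 mean. Fgfr1, Fgf7, both PDGF receptors and Pdgfa lie between 8.51 and 43.1 RPKM, and the other ligands drawn lie at or below 1.09 RPKM. Fgfr2, with zeros, is not drawn.

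Ratios of read counts within a library do not depend on how libraries are scaled, but a trend of counts with exon length can still enter them. No length-corrected ratio was computed. With that correction the log2 fold change of Pdgfra was 0.77, in place of 1.21. The ratio of Pdgfa to Pdgfra was 0.122, 0.208 and 0.134 in AAV9-hFNDC4, against 0.611, 0.417 and 0.651 in AAV9-CTRL. Every AAV9-hFNDC4 library thus held fewer ligand reads per receptor read, by a ratio of geometric means of 0.274. Each of them had less Pdgfa and more Pdgfra than every AAV9-CTRL library. This ratio and its test below restate those differences and add no separate support. The ratio of Fgf7 to Fgfr1 was 0.601, 0.639 and 0.543 in AAV9-hFNDC4, against 0.338, 0.395 and 0.354 in AAV9-CTRL, again without overlap. Pdgfrb relative to Fgfr1 stood at 0.788, 0.863 and 0.851 in AAV9-hFNDC4, against 0.366, 0.438 and 0.456 in AAV9-CTRL, and Pdgfra relative to Fgfr1 was also higher in each of the 3 AAV9-hFNDC4 libraries. For these 4 ratios a two-sided exact permutation test of the log2 values gave p = 0.1, the smallest that 3 against 3 libraries allow, and p = 0.15 adjusted over the 6 ratios computed. The 3 ratios to Fgfr1 likewise restate the differences of Fgf7, Pdgfrb and Pdgfra and add no separate support. The ratio of Pdgfra to Pdgfrb was 1.27 ± 0.343 in AAV9-hFNDC4 and 1.15 ± 0.279 in AAV9-CTRL (SD, n = 3 libraries each), and the groups overlapped (exact permutation p = 0.8, adjusted 0.8). The ratio of Fgf2 to Fgf1 was 2.30, 0.705 and 1.13 in AAV9-hFNDC4, against 2.33, 1.81 and 2.23 in AAV9-CTRL, with overlap (exact permutation p = 0.3, adjusted 0.36).

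**Figure D4:**
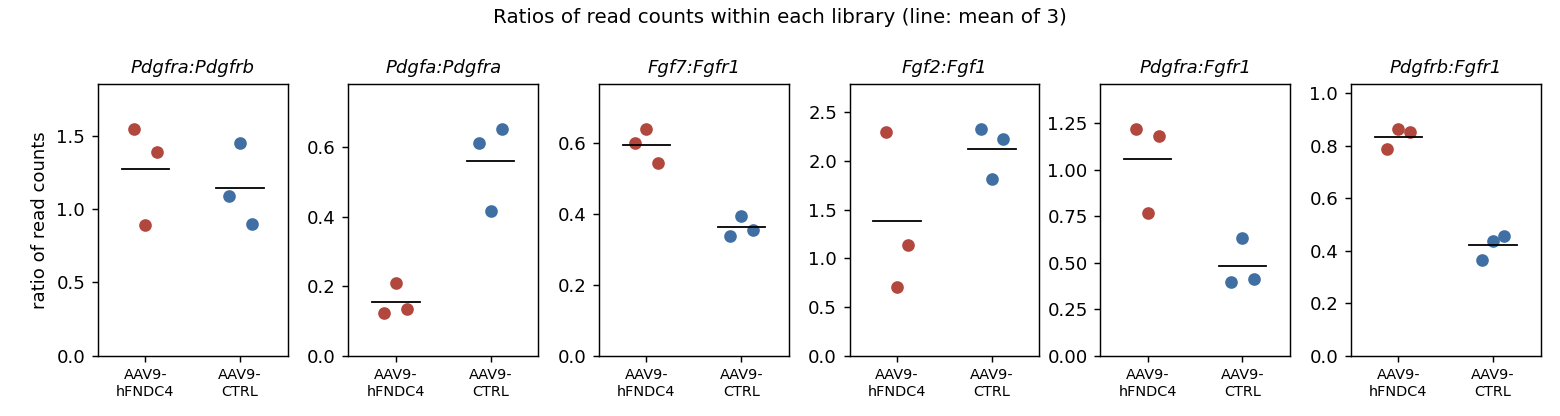
Ratio of the read counts of the named genes in each library (vertical axes, from 0), AAV9-hFNDC4 in red on the left and AAV9-CTRL in blue on the right of each panel, with the mean of 3 libraries as a line. The groups are apart for Pdgfa to Pdgfra, Fgf7 to Fgfr1 and both PDGF receptors to Fgfr1, and overlap for Pdgfra to Pdgfrb and Fgf2 to Fgf1.

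Promoter windows from RefSeq (GRCm38.p6, 250 bases before to 50 after a transcript start) are shown for 3 of the 5 called members. Of these, Pdgfra and Fgf7 were higher and Pdgfa, with windows at 2 starts, was lower. The RefSeq positions of Pdgfra (from 75151322, plus strand) and Pdgfa (to 139000792, minus strand) extend further upstream than their windows. For Pdgfa, upstream and downstream below rank these 2 windows only. The other called members, Pdgfrb and Fgf1, both higher, were left out of this search. The windows therefore do not stand for the called members as a set. Capitals mark matches on either strand to 5 motifs. The first is ACGTG, a core of the hypoxia response element, searched since the series title names HIF1α. The next is GCGTG, the other form of that core. The rest are the CCAAT box, the GC box (searched as GGGCGG) and the TATA box (searched as TATAAA). Each is read 5′ to 3′ on the gene's strand.
Pdgfra, chr5:75152001-75152300, plus strand: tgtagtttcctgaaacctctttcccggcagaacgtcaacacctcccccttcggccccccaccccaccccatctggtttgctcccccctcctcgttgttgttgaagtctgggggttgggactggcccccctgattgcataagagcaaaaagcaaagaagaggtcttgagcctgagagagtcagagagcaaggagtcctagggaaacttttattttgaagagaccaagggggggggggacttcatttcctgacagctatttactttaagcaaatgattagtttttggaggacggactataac
Fgf7, chr2:126034408-126034707, plus strand: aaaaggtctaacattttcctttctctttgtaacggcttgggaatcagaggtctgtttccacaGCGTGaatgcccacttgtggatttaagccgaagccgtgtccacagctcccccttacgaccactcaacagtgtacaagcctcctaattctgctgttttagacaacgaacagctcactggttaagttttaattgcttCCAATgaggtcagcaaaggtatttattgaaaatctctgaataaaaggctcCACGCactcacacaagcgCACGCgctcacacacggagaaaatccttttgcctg
Pdgfa, upstream start, chr5:138994895-138995194, minus strand: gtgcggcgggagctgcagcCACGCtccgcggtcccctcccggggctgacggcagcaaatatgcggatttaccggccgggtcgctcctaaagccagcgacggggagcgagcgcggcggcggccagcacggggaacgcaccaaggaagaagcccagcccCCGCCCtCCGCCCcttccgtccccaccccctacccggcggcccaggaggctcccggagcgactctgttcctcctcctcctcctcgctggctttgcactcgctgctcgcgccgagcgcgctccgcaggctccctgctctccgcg
Pdgfa, downstream start, chr5:138994232-138994531, minus strand: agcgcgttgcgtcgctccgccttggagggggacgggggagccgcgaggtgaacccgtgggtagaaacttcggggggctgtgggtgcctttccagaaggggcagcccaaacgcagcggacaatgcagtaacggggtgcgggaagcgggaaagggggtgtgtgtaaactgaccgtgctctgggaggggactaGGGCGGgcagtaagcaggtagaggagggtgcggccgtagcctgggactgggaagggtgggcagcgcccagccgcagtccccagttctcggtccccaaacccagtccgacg
The Pdgfra window held none of the 5 motifs, and 51.0% of its bases were G or C. The Fgf7 window held GCGTG at 3 places and CCAAT at 1, with 45.7% G or C. The windows of Pdgfa were richer in G and C, at 73.3% for the upstream start, which held GCGTG once and GGGCGG at 2 places, and 67.0% for the downstream start, which held GGGCGG once. Of all 32851 windows of this length, 43.8% held a hypoxia response element core, 37.4% a CCAAT box, 35.7% a GC box and 13.6% a TATA box. No matches overlapped each other in these 4 windows. A match is a run of letters and not a shown binding site.

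Of 20 further PDGF and FGF genes of the ligand families, 17 had a row, 4 were tested and 1 was at 1 CPM or more in 3 libraries or more, and Pdgfd had no counts. Fgf11, which encodes an intracellular FGF homologous factor that does not act on FGF receptors, was the 1 that was called. It had 39.4 ± 3.61 CPM in AAV9-hFNDC4 and 20.5 ± 7.10 CPM in AAV9-CTRL (SD, n = 3 libraries each), a log2 fold change of 0.94 (SE 0.20, adjusted p = 0.00259). Fgf18 had 1, 12 and 3 counts in AAV9-hFNDC4, against 26, 12 and 16 counts in AAV9-CTRL. Scaled for depth its groups did not overlap, but its log2 fold change of -1.86 (SE 0.75) did not pass (adjusted p = 0.0612). Of 8 tested other receptors and co-receptors, 4 were higher and 1 was lower, beside 22.1% higher and 25.0% lower among all tested genes. The median log2 fold change of the 8 was 0.51. The higher ones were heparan sulfate proteoglycans, which present FGF ligands to their receptors: Hspg2 (perlecan) at 938 ± 54.6 against 437 ± 56.1 CPM, Sdc3 at 425 ± 35.0 against 218 ± 28.4 CPM, Sdc2 at 180 ± 12.1 against 113 ± 6.36 CPM, and Gpc6 at 5.85 ± 0.531 against 2.84 ± 0.532 CPM, each in AAV9-hFNDC4 against AAV9-CTRL. Hspg2 was higher by 1.10 in log2 units, and by 0.50 with the length correction. Fgfrl1, an FGF receptor with no kinase domain, was lower (-0.50 in log2 units, adjusted p = 0.0261). It lost its call in 6 of 15 alternatives, with adjusted p from 0.00471 to 0.0691 over them. These include leaving out AAV9-hFNDC4 replicate 2 (-0.32) and each of the AAV9-CTRL libraries (-0.50 without replicate 1, -0.45 without replicate 2 and -0.52 without replicate 3).

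Of 10 tested enzymes that build or cut heparan sulfate, 6 were higher and 0 lower, and the median log2 fold change was 0.35. Among all tested genes, 22.1% were called higher and 25.0% lower. In log2 units, Glce, the epimerase of the chain, rose by 0.90 (SE 0.12), Hpse, the heparanase that cuts it, by 0.85 (SE 0.13), Ndst2, a sulfotransferase, by 0.63 (SE 0.14), and Hs2st1, another sulfotransferase, by 0.49 (SE 0.11). The call of Hs2st1 was lost with the length correction (0.20, adjusted p = 0.173). Of 7 tested genes of ligand processing and binding, 4 were lower and 0 higher, beside the same shares over all genes. The median log2 fold change of the 7 was -0.41. Plat, the protease that activates latent PDGF-CC, had 3.99 ± 0.255 CPM in AAV9-hFNDC4 and 17.5 ± 2.84 CPM in AAV9-CTRL (SD, n = 3 libraries each), a log2 fold change of -2.14 (SE 0.18, adjusted p = 1.12e-05). Plau, known for activating PDGF-DD, changed by -2.15 on the log2 scale (SE 0.43) and Sparc, a matrix protein that binds the PDGF B chain, by -0.45 (SE 0.11). Fibp, an intracellular binding partner of FGF1, stood at -0.35 in log2 units (SE 0.12) and at -0.01 with the length correction, and was not called in 7 of 15 alternatives. Its calls were lost without AAV9-hFNDC4 replicate 2 (-0.29) or 3 (-0.35) and without AAV9-CTRL replicate 2 (-0.28) or 3 (-0.38).

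Downstream of the receptors, 15 of 33 tested adaptors and signal transducers were higher and 6 lower, beside 22.1% higher and 25.0% lower among all tested genes, and the median log2 fold change was 0.18. In log2 units, Pik3r1, the regulatory subunit of phosphoinositide 3-kinase, rose by 1.18 (SE 0.12), Sos1, the exchange factor of RAS, by 0.93 (SE 0.12) and Gab2, a docking protein, by 0.69 (SE 0.14), while Hras was lower with -0.70 (SE 0.12). With the length correction Sos1 stood at 0.51 and Gab2 at 0.40, both still called. Among 15 tested feedback inhibitors, 7 were higher and 1 was lower, with a median log2 fold change of 0.23. A call in either direction, as in 8 of these 15, was met in 47.1% of all tested genes. That pooled count sets the list little apart. By direction, 7 higher and 1 lower stand beside 22.1% higher and 25.0% lower among all tested genes. Cblb, a ubiquitin ligase for activated receptors, rose by 0.999 in log2 units (SE 0.17), Spred2, an inhibitor of the RAS to ERK step, by 0.80 (SE 0.10), Il17rd, an inhibitor of FGF signalling, by 0.90 (SE 0.26) and Nf1, a RAS GTPase activator, by 0.57 (SE 0.16), and Ptpn1, a phosphatase, was lower with -0.47 (SE 0.11). This count was 5 in place of 8 without AAV9-hFNDC4 replicate 1, 2 or 3 (each in turn), 4 without AAV9-CTRL replicate 3, and 4 with the length correction, 2 higher and 2 lower, where Nf1 stood at 0.04 and Il17rd at 0.40, neither called, and Cblb at 0.66, still called. Il17rd was also not called without AAV9-hFNDC4 replicate 1 (0.85) or 3 (0.84) or without AAV9-CTRL replicate 3 (0.73).

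The genes listed here as targets of ERK or ETS factors mostly went the other way from the 2 PDGF receptors. Of 17 tested, 12 were lower and 3 higher, beside 25.0% lower and 22.1% higher among all tested genes. The list median log2 fold change was -0.84. Dusp6 (0.08 in log2 units), Spry2 (0.08), Spry4 (0.46), Spred1 (0.37) and Spred2 (0.80) were counted with the feedback inhibitors instead. Of these, Spry4, Spred1 and Spred2 were called higher, so the direction holds for this list as drawn. The immediate early genes Fos (log2 fold change -5.68, SE 0.20) and Egr1 (-2.71, SE 0.14) had the largest changes, followed by the ERK phosphatase Dusp5 (-2.29, SE 0.16) and Phlda1 (-2.11, SE 0.11). The 3 higher genes were Etv1 by 0.79 (SE 0.16) and Etv5 by 0.50 (SE 0.12), ETS factors that FGF signalling is known to induce, and Myc by 0.44 (SE 0.14). Etv4, the remaining ETS factor of the same subfamily and likewise known as FGF-induced, was lower, at 34.0 ± 6.80 CPM in AAV9-hFNDC4 and 57.5 ± 2.72 CPM in AAV9-CTRL (SD, n = 3 libraries each), a log2 fold change of -0.76 (SE 0.14, adjusted p = 0.00125). It was named after its values were seen. Etv1 was not called with the length correction (0.44, adjusted p = 0.0658). Myc was not called without AAV9-hFNDC4 replicate 2 (0.29, adjusted p = 0.0986) or without AAV9-CTRL replicate 2 (0.34, adjusted p = 0.0583). These lists were chosen with earlier results of these data known, so their counts describe the samples and are no independent evidence of direction.

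**Figure D5:**
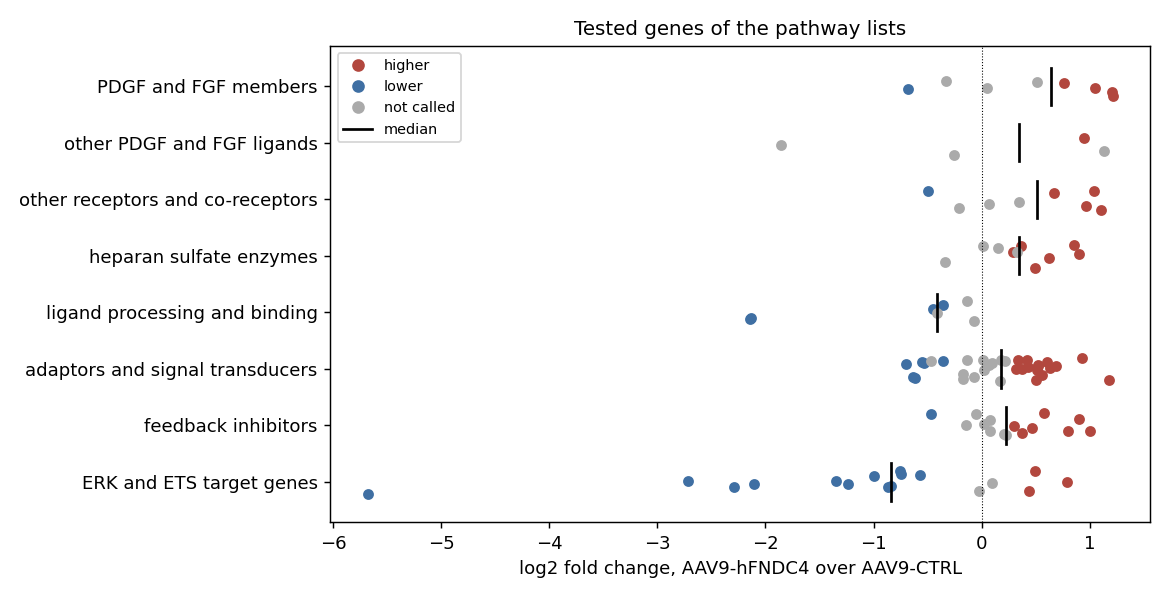
Log2 fold change of AAV9-hFNDC4 over AAV9-CTRL (horizontal axis) for each tested gene of the members and 7 pathway lists, red where called higher, blue where called lower and grey where not called, with the list median as a black line. The medians run from 0.64 for the members to -0.84 for the ERK and ETS target genes.

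Markers of other cell types went in both directions. Of 15 fibroblast markers, 9 were at 1 CPM or more in 3 libraries or more. The whole list summed to 3589 to 3969 CPM in AAV9-hFNDC4 and 2556 to 2966.5 CPM in AAV9-CTRL. Beside 22.1% higher and 25.0% lower among all tested genes, 4 of 10 tested fibroblast markers were higher (Col1a2, Col3a1, Ddr2, Pi16). The 2 lower were Dpt (-0.84 in log2 units) and Mfap5 (-0.48). Within this list the collagens and Ddr2, a collagen receptor (595 ± 118.5 CPM in AAV9-hFNDC4 and 299 ± 67.9 CPM in AAV9-CTRL), were abundant. Gsn was abundant too (346 ± 66.7 CPM in AAV9-hFNDC4 and 422 ± 52.5 CPM in AAV9-CTRL). Loxl1 stood at 114 ± 5.32 CPM in AAV9-hFNDC4 and 118 ± 11.8 CPM in AAV9-CTRL. Gsn (-0.29 in log2 units), Loxl1 (-0.06) and Col1a1 (0.34) were not called. Dcn, Lum and Tcf21 had at most 7 counts over either group. Of 12 mural cell markers, 3 reached that level, and the whole list summed to 459 to 509 CPM in AAV9-hFNDC4 and 299 to 353 CPM in AAV9-CTRL, nearly all of it from Cspg4 (389.5 ± 25.6 CPM in AAV9-hFNDC4 and 237 ± 32.8 CPM in AAV9-CTRL, SD, n = 3 libraries each) and Des. Of 5 tested mural markers 1 was higher (Cspg4) and 3 were lower, with a median log2 fold change of -1.34. The lower ones were Notch3 (-2.56 in log2 units), Mcam (-1.34) and Tagln (-1.80, under 1 CPM in every library). The pericyte marker Rgs5 had 7 counts in AAV9-hFNDC4 and 9 in AAV9-CTRL. The part of either marker list in the levels of Pdgfra and Pdgfrb was not tested, and in bulk RNA more cells of a type and more RNA per cell cannot be told apart.

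Blood cell and vessel markers were low. Of 9 platelet and megakaryocyte markers with a row, only Itga2b reached that level, the list summed to 3.24 to 4.54 CPM in AAV9-hFNDC4 and 3.85 to 5.67 CPM in AAV9-CTRL, and none of 3 tested was called. The leukocyte list had 4 of 14 present and C1qb with no counts. It summed to 24.3 to 28.2 CPM in AAV9-hFNDC4 and 41.9 to 50.1 CPM in AAV9-CTRL. Of 4 tested, 2 were lower, Cd68 (-1.25 in log2 units) and Itgam, beside 25.0% lower among all tested genes. Itgam had no counts in AAV9-hFNDC4, against 61, 47 and 60 counts in AAV9-CTRL. The endothelial list, 5 of 15 present, summed to 205 to 228 CPM in AAV9-hFNDC4 and 234 to 253 CPM in AAV9-CTRL, mostly Eng. In this list 0 of 7 tested were called, and Emcn and Cldn5 had no counts. Among all tested genes, 47.1% were called in either direction.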

How the data were processed

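The authors deposited raw read counts per gene symbol, 1 column for each of 6 libraries, with no normalization. Per the submitters' processing notes, fastp, HISAT2, HTSeq, DESeq2 and R 3.2.0 were used with GRCm38 (mm10). RNA was extracted with TRIzol and libraries built with the VAHTS V6 kit, as the labels' protocols say. Parameters, annotation release and strand setting have no mention in the sources used here.

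The main test was that of edgeR 4.0.16 (R 4.3.3), with filterByExpr defaults (14663 of 27482 symbols kept), TMM, robust dispersions and the quasi-likelihood F test, AAV9-hFNDC4 over AAV9-CTRL, with Benjamini-Hochberg adjustment over all genes tested and a threshold of 0.05. The SE is the size of the log2 fold change divided by the square root of F. CPM used TMM-scaled library sizes, and RPKM the union of exons in GENCODE vM21 basic. The 1 CPM limit for markers used plain totals. Floors were 3 counts over a group. Floors and intervals cover counting error only, as PCR copies are not independent. The fits were tested on simulated data. Alternatives were RLE, upper-quartile, no filter, 1 CPM in 3 libraries, DESeq2 1.42.0, limma-voom (limma 3.58.1), a replicate block, length and GC corrections (loess, span 0.4, as offsets) and leaving out each library, 15 in all. Named were the members, per list up to 4 called genes of at least 1 CPM with the largest change, and counts of 5 or fewer in full. Members and lists were chosen with earlier results of these data known. Gene positions are RefSeq's. Fgf3, Fgf5 and Fgf13 were not analysed here.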

Additional observations from a re-analysis of the deposited data

How the results depend on the processing

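The calls of Pdgfra, Pdgfrb, Fgf1, Fgf7 and Pdgfa kept their direction and passed in each of 15 alternatives, with adjusted p up to 0.0434. The log2 fold change of Fgfr1 was -0.16 with the length correction and from -0.0073 to 0.18 with 1 library left out. The difference between groups in the log2 ratio of Pdgfra to Pdgfrb ran from -0.019 to 0.38 with 1 library left out. The count of other receptors and co-receptors called was 8 without the low-count filter, in place of 5. For other ligands it was 2 with limma-voom, in place of 1, and 1 to 2 with 1 library left out, 2 being without AAV9-hFNDC4 replicate 2. For feedback inhibitors it was 4 with the length correction, in place of 8, and 4 to 9 with 1 library left out. Members called were 5 to 6 with 1 library left out. Without the low-count filter, which moved the median log2 fold change of all genes to -0.15, Fgfr2 was called lower (adjusted p = 0.0479) and Pdgfb was not (adjusted p = 0.279). Same-numbered libraries did not deviate together (correlations of -0.09, -0.20 and -0.06, and 0 of 6 libraries correlated best with their own number). With the replicate block, 5 members and 5743 genes were called, in place of 5 and 6908, and Fibp (adjusted p = 0.0843) and Myc (adjusted p = 0.0654) lost their calls. The cause of these changes was not tested. Low counts limit Pdgfb and Fgfr2.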

Other observations

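Some genes of these systems with too few counts to be tested differed between the groups, and were picked after their values were seen. Klb, the co-receptor of endocrine FGFs, had 10, 5 and 3 counts in AAV9-hFNDC4 and none in any AAV9-CTRL library. Sulf2, a heparan sulfate sulfatase, had 26, 6 and 18 counts in AAV9-hFNDC4, against 1, 3 and 1 counts in AAV9-CTRL. Fgfr3 had 1, 1 and 0 counts in AAV9-hFNDC4, against 16, 0 and 18 counts in AAV9-CTRL, and Fgfr4 had 2, 2 and 0 counts in AAV9-hFNDC4, against 18, 2 and 9 counts in AAV9-CTRL. The groups overlapped for Fgfr3. For Fgfr4, AAV9-CTRL replicate 2 had as many counts as the highest AAV9-hFNDC4 libraries, and scaled for depth it lay just above them, at 0.0637 CPM.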
